A study of Mus musculus with 16 samples.

Results

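Genes of the nuclear pore and of the transport receptors that move through it were followed on 16 mouse arrays. The members were all probe sets whose only gene symbol in the platform annotation names a numbered nucleoporin (Nup or Nupl), an importin (Kpna, Kpnb1 or Ipo), a transportin (Tnpo), an exportin (Xpo or Cse1l), Tpr or the GTPase Ran. These were 124 probe sets of 46 genes, of 45101 probe sets in the table, and no probe set carried Tpr as its only symbol. Another 3 probe sets name a member together with another gene and were left out. All RNA came from a culture of E14tg2a, a mouse embryonic stem cell line derived from strain 129 embryos. In the amplified group (n = 8) total RNA diluted to 10 pg was reverse transcribed and PCR-amplified by the V1V3 method in an independent reaction for each array. In the nonamplified group (n = 8) 5 µg of the same RNA was labelled without amplification. The labels call the arrays technical replicates, so p-values measure only the spread between reactions and arrays, and the series asks how far amplification alone changes a measurement. The groups share line, culture, RNA and array type, and no treatment or genetic change is given.

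The nuclear pore complex is a ringed channel through the nuclear envelope. Scaffold nucleoporins build its rings, and nucleoporins with phenylalanine-glycine (FG) repeats fill the channel and bind the receptors that carry cargo. Importins bind cargo in the cytoplasm and release it in the nucleus when they meet Ran bound to GTP, whereas exportins bind cargo together with Ran-GTP and release it outside after GTP is hydrolysed. In embryonic stem cells this traffic carries the pluripotency transcription factors into the nucleus, and the importin alpha subtypes present change as the cells differentiate.

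The label of the cells was checked against markers. All 8 stem cell markers examined had a probe set bright enough to test. Of their 11 probe sets 4 rose, 4 fell and 3 did not pass. Marker calls rest on the values as deposited. Other scalings between arrays are not given for them, so the direction of small changes may depend on the scaling. Sox2 measured 4050.2 ± 138 without amplification and 5047 ± 327 after it (mean intensity, SD, n = 8 each), whereas Nanog went from 1776 ± 61.02 to 276 ± 79.5 and Pou5f1 from 4159 ± 213 to 3155 ± 464. Esrrb fell at 1422986_at from 607 to 15.1 in the mean and at 1436926_at from 1411 to 625, and rose at 1441921_x_at from 511 to 733. Of the probe sets for markers of other cell types, 2 of 10 for fibroblasts, 5 of 9 for trophoblast and 4 of 10 for primitive endoderm were bright enough to test. The summed intensity of the stem cell probe sets was 30199.5 to 31599.5 per nonamplified array and 31324 to 34959 per amplified array. The corresponding ranges were 227 to 319 and 151 to 249 for fibroblasts, 962 to 1156 and 241 to 1493 for trophoblast, and 268 to 340 and 515 to 653 for primitive endoderm. No marker probe set was at the floor of the table, an intensity of 1, on every array of both groups. Col3a1 at 1427884_at had medians of 1 without amplification and 8.58 after it. The Tfap2c probe set 1448977_at was at the floor on all 8 amplified arrays, against a nonamplified mean of 176. The Tfap2c probe set 1436392_s_at had means of 569.7 and 578 and did not pass, and Eomes at 1426001_at rose from 75.99 to 152. Of the 4 tested primitive endoderm probe sets 3 rose, in the mean from 11.6 to 97.9 for Sox7 at 1432495_at, from 73.2 to 229 for Gata6 at 1443081_at and from 36.2 to 49.6 for Sox17 at 1421657_a_at. Sox7 at 1416564_at did not pass. No probe set of Cdx2, Elf5, Col3a1, Thy1, Gata4 or Foxa2 was bright enough to test. Both groups hold the same RNA, so any such cells in the culture are common to both. For the level of a gene in this bulk RNA, fewer cells of a type and less RNA per cell cannot be told apart. The median intensity of an array was 49.7 to 53.8 without amplification and 33.9 to 36.7 with it. Precision is limited by the number of arrays.

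After amplification more of these probe sets fell than rose. Ran, Kpnb1 and Kpna4 had probe sets that were higher on every amplified array, whereas probe sets of the transportins Tnpo1, Tnpo2 and Tnpo3, of Nup98 and of Xpo4 were lower on every one. Another Kpnb1 probe set (1434357_a_at) was also lower on every amplified array, and the rise of Ran did not hold under quantile normalization. Values are compared here as log2(intensity + 16), and a log2 fold change is the amplified mean minus the nonamplified mean on that scale, so the change of dim ones is understated. Probe sets with a mean above the 40th percentile of all probe sets were tested with limma, and a change is called at a Benjamini-Hochberg adjusted p under 0.05 over all 27022 tested probe sets. Of the 124 members 102 were tested, with at least 1 for every gene. Of these 22 rose, 39 fell and 41 did not pass, so 59.8% were called, where 57.5% of all tested probe sets were. The members that rose made up 21.6%, beside 24.7% of all tested probe sets, and those that fell 38.2%, beside 32.8%. A called change of at least 2-fold was found for 9 higher and 35 lower members, which is 8.82% and 34.3%, beside 12.5% and 22.1% of all tested probe sets. The 2 groups of arrays did not overlap for 13 higher and 28 lower members, together 40.2%, beside 33.6% overall. The median log2 fold change was −0.41 for tested members and −0.17 for all tested probe sets.

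**Figure D1:**
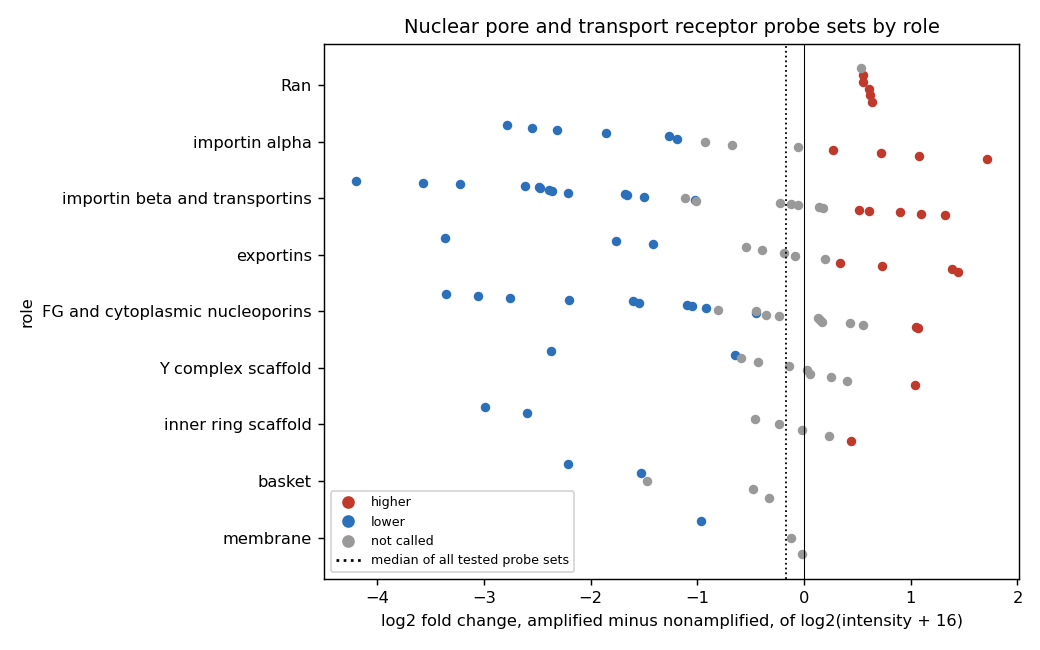
Log2 fold change (amplified minus nonamplified, x axis) of each of the 102 tested probe sets, in rows by role, with called increases in red, called decreases in blue and probe sets that did not pass in grey. The dotted line is the median of all tested probe sets (−0.17), and the values run from −4.20 to 1.72.

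Small differences, and some of at least 2-fold, depended on how arrays were scaled to each other. The median over all tested probe sets was −0.03 under quantile normalization, 0.24 after centring on array medians and 0.045 when scaled on the brighter 50% of probe sets. Of the 22 members called higher and 39 called lower, 9 and 34 kept their call and direction under all 3 of these scalings. The 9 increases were Ipo13 at 1433464_at, Ipo4 at 1436420_a_at, Kpna1 at 1449505_at, Kpna4 at 1417974_at, Kpna7 at 1437754_at, Kpnb1 at 1451967_x_at, Nup85 at 1437520_a_at and Xpot at 1428772_at and 1441682_s_at. Of these Kpna7 passed the intensity filter through its amplified arrays alone. The 5 decreases that did not pass under some scaling were Ipo8 at 1426760_at, Kpna3 at 1450386_at, Nup54 at 1459651_s_at, Nup62 at 1415926_at and Nup85 at 1416073_a_at. Quantile normalization kept 9 of the increases and all 39 decreases, and turned Kpna2 and 1 probe set each of Ran, Xpo1 and Ipo5 to called decreases. It gave 9 higher and 59 lower members, beside 30.5% and 29.7% of all tested probe sets. Centring on the median gave 28 and 34, beside 38.1% and 22.2%. Scaling on the brighter probe sets gave 22 and 37, beside 31.4% and 26.6%.

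Ran, the GTPase whose nucleotide state sets the direction of transport, was higher after amplification at each of its 5 probe sets of type _x_at, a suffix for probes that can match further transcripts. The Ran probe set with the highest nonamplified mean (1436490_x_at) read 6433 to 7415 (median 6762) on nonamplified arrays and 9450 to 10721 (median 10176) on amplified arrays. All 8 amplified arrays lay above all 8 nonamplified ones (log2 fold change 0.55, SE 0.066, limma adjusted p = 1.68e-06). The 4 others of this type had log2 fold changes of 0.55 to 0.64 and did not overlap between groups either. The direction did not hold under quantile normalization, where the value for 1436490_x_at was −0.012 (limma adjusted p = 0.884) and the probe set 1434578_x_at was called lower (−0.19). The sixth Ran probe set (1460551_at) has no such suffix, and it read 682 to 789 (median 710.5) and 192 to 1728 (median 1482). Of its amplified arrays 7 lay above the nonamplified range and 1 far below it, and it did not pass (log2 fold change 0.53, SE 0.35, limma adjusted p = 0.21). That array was amplified replicate 7 (192), and without that array the log2 fold change was 0.87 (limma adjusted p = 0.000152). The 5 other Ran probe sets read 6162 to 10097 on that same array, within the range of the other amplified arrays.

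The importin alpha adaptors, which bind the classical nuclear localization signal of a cargo and tether it to importin beta, moved in both directions. Of 13 tested probe sets of 6 genes, 4 rose, 6 fell and 3 did not pass, with a median log2 fold change of −0.93, where 24.7% of all tested probe sets rose and 32.8% fell with a median of −0.17. The decreases were at 3 probe sets each of Kpna1 and Kpna3, so the class median leans on these genes. Quantile normalization gave 3 higher and 7 lower, beside 30.5% and 29.7% of all tested probe sets. Kpna2, the adaptor typical of undifferentiated mouse embryonic stem cells, read 3288 to 3712 (median 3431) without amplification and 3639.9 to 4963 (median 4185) after it. The groups overlapped by 1 array, and the rise was small (log2 fold change 0.27, SE 0.072, limma adjusted p = 0.00369). It turned to −0.61 under quantile normalization (limma adjusted p = 1.92e-06), and with 1 weight per group it did not pass (limma adjusted p = 0.05196). Kpna4, an adaptor of the same family, went from 549.5 to 626 (median 598) to 826 to 2234 (median 1265), with every amplified array above every nonamplified one (log2 fold change 1.08, SE 0.16, limma adjusted p = 1.84e-05). Its other probe set (1417975_at) was too dim to test, and it read 34.2 to 78.3 (median 67.7) and 1 to 39.1 (median 11.7). Kpna7, the adaptor known from oocytes and early embryos, rose at a dim probe set from 15.9 to 34.7 (median 27.5) to 31.7 to 85.9 (median 49.5) (log2 fold change 0.72, SE 0.16, limma adjusted p = 0.000981). Its nonamplified mean of 27.2 lay under the filter intensity of 33.7 and its amplified mean of 57 above it. It was therefore tested only through the group where it is high, and its call is a description.

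Kpna3 fell at all 3 of its probe sets, and the array that kept a high value differed between them. At 1450386_at it read 612 to 736 (median 648) on nonamplified and 105 to 831 (median 279.9) on amplified arrays (log2 fold change −1.19, SE 0.33, limma adjusted p = 0.00565). At 1421828_at and 1450385_at the nonamplified medians were 344 and 459 and the amplified medians 14.9 and 73.3 (log2 fold changes −2.79 and −1.86). Amplified replicate 1 was the highest array at both, with 552 and 916, and it was the lowest at 1450386_at, with 105. Kpna1 went both ways within the gene. Its probe set 1449505_at rose from 335 to 411 (median 379) to 629 to 2958 (median 1214) (log2 fold change 1.72, SE 0.28, limma adjusted p = 6.23e-05). The probe sets 1419548_at, 1449503_at and 1449504_at fell, with log2 fold changes of −2.55, −1.26 and −2.32. For 1449504_at the arrays read 217 to 248 (median 229.5) and 6.25 to 60.3 (median 35.8), without overlap. The fifth Kpna1 probe set (1460260_s_at) read 460.3 to 506 (median 489) and 1 to 1032 (median 297) and did not pass (log2 fold change −0.93, SE 0.59, limma adjusted p = 0.198). Kpna6 was uneven between arrays at both of its tested probe sets, and neither passed. At 1418590_at it read 49.5 to 68.9 (median 61.4) and 1 to 425 (median 6.23), with no amplified array inside the nonamplified range (log2 fold change −0.68, SE 0.62, limma adjusted p = 0.372). At 1426796_at it read 402 to 551 (median 490.4) on nonamplified and 1 to 1193 (median 748) on amplified arrays (log2 fold change −0.052, SE 0.66, limma adjusted p = 0.954). Amplified replicate 2 was at the floor there, and without it the log2 fold change was 0.64 (limma adjusted p = 0.00107).

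Kpnb1, the importin beta that carries importin alpha with its cargo through the pore, gave the widest disagreement between probe sets of the same gene among the members. At 1451967_x_at it read 2122 to 2440.1 (median 2316) without amplification and 4969 to 6599 (median 5853) after it, with all amplified arrays above all nonamplified ones (log2 fold change 1.32, SE 0.077, limma adjusted p = 2.41e-10). At 1434357_a_at it fell from 349 to 428 (median 400.4) to 1 to 20.3 (median 5.95), the largest decrease among the tested members (log2 fold change −4.20, SE 0.14, limma adjusted p = 2.61e-13). The remaining Kpnb1 probe sets lay between these. At 1416925_at the arrays read 1016 to 1177 (median 1091) and 748 to 1428 (median 1089) (log2 fold change −0.057, SE 0.13, limma adjusted p = 0.735). At 1448526_at they read 1084 to 1273 (median 1163) and 552 to 1583 (median 1127) (log2 fold change −0.23, SE 0.20, limma adjusted p = 0.345). These last 2 changed direction with the scaling, to 0.35 and 0.18 after centring on array medians.

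Ipo5, an importin of ribosomal proteins and histones, also went both ways, and without overlap in either case. The probe set 1426945_at fell from 2181 to 2470.3 (median 2315) to 190 to 535 (median 451) (log2 fold change −2.48, SE 0.17, limma adjusted p = 1.74e-09), and 1426946_at rose from 1861 to 1989 (median 1932) to 2563 to 3402 (median 3001) (log2 fold change 0.61, SE 0.07, limma adjusted p = 1.03e-06). The rise turned to −0.22 under quantile normalization. Ipo7, a related importin, read 1752 to 1986 (median 1859.8) and 1376 to 3009 (median 2183) (log2 fold change 0.14, SE 0.16, limma adjusted p = 0.467), and its value under quantile normalization was −0.64 (limma adjusted p = 0.00107). Ipo4, a carrier of histones, rose at 1436420_a_at from 381 to 447 (median 416) to 499 to 1987 (median 814) (log2 fold change 1.09, SE 0.21, limma adjusted p = 0.0002397), while its other probe set had 0.18 (limma adjusted p = 0.589). Ipo9 rose at 1441645_s_at (log2 fold change 0.90), fell at 1439481_at (−2.36) and did not pass at 1424466_at (−0.12). Ipo13, which carries cargo in both directions, rose from 143 to 169.9 (median 157) to 166 to 343 (median 234) (log2 fold change 0.51, SE 0.12, limma adjusted p = 0.00214). Ipo8 fell at both tested probe sets. Its decrease at 1452185_at was free of overlap (137 to 164 (median 144) against 22.5 to 47.6 (median 36.1), log2 fold change −1.66). That at 1426760_at passed narrowly (log2 fold change −1.50, SE 0.62, limma adjusted p = 0.0482) and was lost without any of amplified replicates 2 to 6 or any nonamplified array, with a limma adjusted p of 0.0538 to 0.0909. Ipo11 read 586 to 650.3 (median 629) and 44.2 to 973 (median 395) and did not pass (log2 fold change −1.01, SE 0.51, limma adjusted p = 0.103), though it did without amplified replicate 4 (−1.24, limma adjusted p = 0.0413). Together 5 of the 16 tested probe sets of Kpnb1 and the numbered importins rose and 5 fell, beside 24.7% and 32.8% of all tested probe sets. With the transportins the class holds 25 tested probe sets, of which 5 rose and 13 fell. Under quantile normalization 3 were higher and 19 lower, beside 30.5% and 29.7% of all tested probe sets.

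The transportins fell at nearly all of their tested probe sets. Tnpo1 and its close relative Tnpo2 import RNA-binding proteins of the hnRNP type, and Tnpo3 imports splicing factors of the SR type. Of their 9 tested probe sets 8 fell and none rose, with a median log2 fold change of −2.39. Decreases made up 32.8% of all tested probe sets, and these 3 genes were put together after their values were seen, so the count is a description. All 8 kept the call and the direction under each of the 3 other scalings. Tnpo2 at 1437283_at read 311 to 370.4 (median 352) without amplification and 32.5 to 58.3 (median 44.1) after it (log2 fold change −2.61, SE 0.096, limma adjusted p = 7.02e-13). At 1425593_at its nonamplified arrays read 260.4 to 285 (median 271) and its amplified arrays 1 to 16.1 (median 10.04) (log2 fold change −3.57, SE 0.13, limma adjusted p = 7.19e-13). At 1425592_at the log2 fold change was −2.39. No amplified array reached the nonamplified range at any of the 3. Tnpo3 fell at 3 probe sets (log2 fold changes −1.02, −1.68 and −3.22), at 1419950_s_at from 544 to 609.5 (median 580.3) to 181 to 496 (median 267) and at 1429369_at from 458 to 554 (median 482) to 11.8 to 77.6 (median 38.2). Tnpo1 fell at 1455043_at, from 328 to 369 (median 349) to 28.6 to 158 (median 52.3) (log2 fold change −2.21, SE 0.25, limma adjusted p = 7.83e-07), and at 1419864_x_at (log2 fold change −2.48). Its probe set 1433585_at spread from 24.8 to 1559 on amplified arrays around a nonamplified median of 713 and did not pass (log2 fold change −1.11, SE 0.55, limma adjusted p = 0.0942). Without amplified replicate 8, the highest array there, it was called lower (−1.43, limma adjusted p = 0.0206), and so it was without amplified replicate 7 (limma adjusted p = 0.0498).

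The exportins included members that were near their nonamplified level and others that fell to near the floor. Of 12 tested probe sets 4 rose, 3 fell and 5 did not pass, with a median log2 fold change of −0.14. The shares over all tested probe sets were 24.7% higher and 32.8% lower. Quantile normalization gave 2 higher and 7 lower exportin probe sets, with a median of −0.74. Over all tested probe sets it gave 30.5% higher and 29.7% lower, with a median of −0.03. Cse1l, which returns importin alpha to the cytoplasm, read 1882 to 2145 (median 1979) without amplification and 1504 to 2577 (median 1786) after it. The amplified arrays lay on both sides of the nonamplified range (log2 fold change −0.086, SE 0.10, limma adjusted p = 0.489), and the sign changed with the scaling, to 0.32 when centred on the median and −0.88 under quantile normalization. Xpo1, the general export receptor for leucine-rich export signals, read 2393 to 2531 (median 2449.9) and 1404 to 2789 (median 2242) at 1418443_at (log2 fold change −0.19, SE 0.11, limma adjusted p = 0.174). Its probe set 1418442_at rose slightly, from 1670.4 to 1919 (median 1701) to 1625 to 3008 (median 2219) (log2 fold change 0.34, SE 0.12, limma adjusted p = 0.0254), and was called lower under quantile normalization (−0.46). With 1 weight per group this rise did not pass (limma adjusted p = 0.0537). Xpo6, the exporter of actin, rose from 485 to 533 (median 498) to 563 to 1417 (median 853) without overlap (log2 fold change 0.73, SE 0.17, limma adjusted p = 0.00139), but did not pass under quantile normalization (0.24, limma adjusted p = 0.167). Xpot, the exporter of tRNA, rose at 1428772_at from 637 to 695 (median 683) to 489 to 4155 (median 1878) (log2 fold change 1.39, SE 0.32, limma adjusted p = 0.00147) and by a like amount at 1441682_s_at (1.44), whereas 1428949_at did not pass (0.20, limma adjusted p = 0.548). Xpo4, which exports the translation factor eIF5A, fell at its tested probe set from 329.7 to 384 (median 367) to 1 to 234 (median 10.3) (log2 fold change −3.36, SE 0.44, limma adjusted p = 5.03e-06). Amplified replicate 7 kept 234 there and replicate 8 kept 59.8, while the other 6 arrays were at 18.98 or less. Xpo5, the exporter of microRNA precursors, fell at 1428560_at (log2 fold change −1.42, limma adjusted p = 0.00705) and did not pass at 1451468_s_at (−0.39, limma adjusted p = 0.352). Xpo7, an exporter of broad specificity, fell at 1415682_at from 470.3 to 537 (median 497) to 13.4 to 588 (median 119) (log2 fold change −1.77, SE 0.50, limma adjusted p = 0.00584). At 1439411_a_at it read 913 to 992 (median 966) and 32.4 to 1182 (median 987) and did not pass (−0.54), with amplified replicate 4 at 32.4 and the other 7 at 765 or more.

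**Figure D2:**
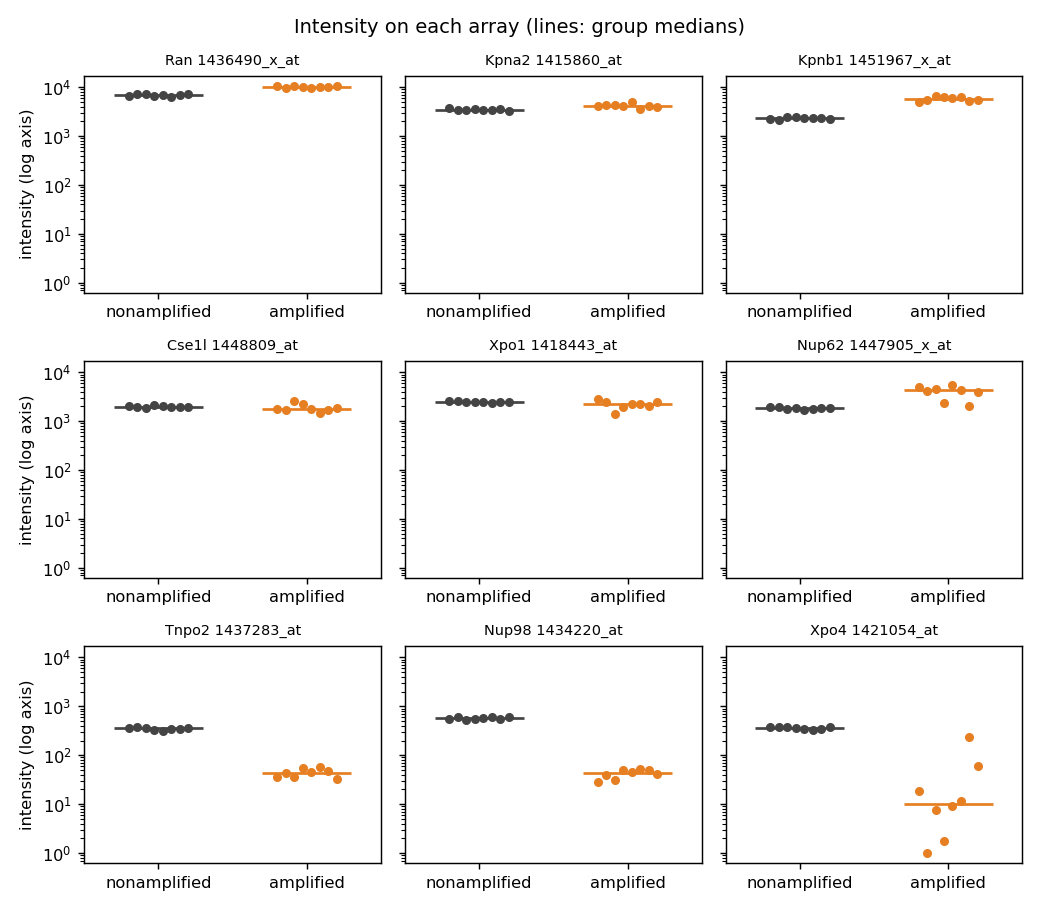
Intensity on a log axis for each nonamplified (grey) and amplified (orange) array at 9 probe sets, with a line at each group's median. The amplified points lie above the nonamplified ones for Ran and the Kpnb1 probe set 1451967_x_at, lie on both sides of them for Cse1l and Xpo1, and lie below them for Tnpo2, Nup98 and Xpo4.

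Among the FG nucleoporins and their cytoplasmic partners 10 of 21 tested probe sets fell, 2 rose and 9 did not pass, with a median log2 fold change of −0.45. Of all tested probe sets 32.8% fell and 24.7% rose. Quantile normalization gave 0 higher and 12 lower in this class, beside 30.5% and 29.7% of all tested probe sets. Both increases belonged to Nup62, the organiser of the central channel. At 1447905_x_at it read 1698 to 1979 (median 1839) without amplification and 2090.4 to 5501 (median 4278) after it (log2 fold change 1.05, SE 0.18, limma adjusted p = 8.61e-05), with no overlap between groups. It did not pass under quantile normalization (0.20, limma adjusted p = 0.312). The probe set 1438917_x_at gave 1.06, and 1415926_at fell slightly (−0.45, limma adjusted p = 0.0281), a call lost without amplified replicate 4 (limma adjusted p = 0.0521) or nonamplified replicate 7 (limma adjusted p = 0.05001). Neither 1415925_a_at (0.17) nor 1448150_at (0.43) passed. The last was among the 5 most variable members on amplified arrays, from 4.11 to 805, against 112 to 135 without amplification.

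Nup54 and Nupl1, also known as Nup58, join Nup62 in the channel trimer. Nup54 fell at 1432539_a_at from 153 to 197 (median 176) to 1 to 28.3 (median 15.8) (log2 fold change −2.75, SE 0.20, limma adjusted p = 2.83e-09). It also fell at 1447253_x_at (−1.05) and 1459651_s_at (−0.92), but did not pass at 1433580_at (−0.45) or 1438951_x_at (0.13). Without amplified replicate 6, the highest array, 1433580_at was called lower (−0.63, limma adjusted p = 0.00351). Nupl1 fell at 1424389_at from 313 to 368 (median 348) to 15.1 to 60.8 (median 26.2) (log2 fold change −3.05, SE 0.15, limma adjusted p = 3.54e-11) and at 1429878_a_at (−2.21). At 1437843_s_at it read 677 to 839.8 (median 785) and 1 to 3211 (median 1985), the second largest spread of the tested members, and did not pass (log2 fold change 0.55, SE 0.83, limma adjusted p = 0.5999). Amplified replicate 3 was at the floor there while the other 7 arrays read 1591 or more, and without that array the probe set was called higher (1.42, limma adjusted p = 1.79e-07). Nup98, an FG protein found on both faces of the pore and in the nucleoplasm, fell at 1434220_at from 536 to 614 (median 571) to 27.9 to 53.4 (median 43.5) (log2 fold change −3.36, SE 0.098, limma adjusted p = 4.30e-14), and no array came near the nonamplified range. Its probe set 1439154_at read 247 to 286 (median 258) and 8.14 to 818 (median 280.1) and did not pass (−0.36). Nup214 and Nup88 form the cytoplasmic export platform. Nup214 at 1434351_at spread over 138 to 1967 (median 823) on amplified arrays, against 573 to 716 (median 634) (log2 fold change 0.15, SE 0.44, limma adjusted p = 0.796). Its dimmer probe set 1456503_at fell (−1.10). Nup88 did not pass (−0.24, limma adjusted p = 0.553). Nupl2, also known as Nup42, fell at 1424889_at from 77.4 to 93.7 (median 83.9) to 8.65 to 29.96 (median 17.9) (log2 fold change −1.60, SE 0.12, limma adjusted p = 5.29e-09) and at 1456773_at (−1.55).

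In the Y complex, the outer ring building block, 7 of 10 tested probe sets did not pass, 1 rose and 2 fell, where 24.7% of all tested probe sets rose and 32.8% fell. The balance moved with the scaling, and quantile normalization called 1 higher and 6 lower, beside 30.5% and 29.7% of all tested probe sets. Nup133, which mouse embryos need for neural differentiation, read 659 to 711 (median 688) and 292 to 912 (median 642) at 1423787_at (log2 fold change −0.14, SE 0.17, limma adjusted p = 0.508), and had 0.031 at 1436816_at. The third tested probe set (1451111_at) fell without overlap, from 355 to 438 (median 409) to 35.5 to 87.1 (median 72.7) (log2 fold change −2.37, SE 0.13, limma adjusted p = 7.93e-11). Nup85 rose at 1437520_a_at from 481 to 781 (median 640.2) to 828 to 2038 (median 1261) (log2 fold change 1.04, SE 0.16, limma adjusted p = 2.63e-05) and fell at 1416073_a_at, from 485 to 576 (median 558) to 235 to 453 (median 353) (log2 fold change −0.65, SE 0.11, limma adjusted p = 0.000102), again without overlap at either. Nup43 had −0.59 and 0.056, and neither passed. The former did without amplified replicate 6 (−0.83, limma adjusted p = 0.0145). Nup107, Nup160 and Nup37 had log2 fold changes of 0.25, −0.43 and 0.40 and did not pass. Nup37 did without amplified replicate 1 (0.66, limma adjusted p = 0.00257), its lowest array.

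In the inner ring, which holds the scaffold to the membrane, 1 of 7 tested probe sets rose and 2 fell. The shares over all tested probe sets were 24.7% and 32.8%. Quantile normalization called 0 higher and 4 lower, beside 30.5% and 29.7% of all tested probe sets. Nup93, the anchor of this ring, read 841 to 1026 (median 919.6) and 685 to 1894 (median 1400.1), with overlap and a narrow call (log2 fold change 0.44, SE 0.17, limma adjusted p = 0.0411). The call was lost without any of 11 of the 16 arrays (limma adjusted p = 0.0563 to 0.0803), among them amplified replicates 1, 2, 3, 7 and 8 and nonamplified replicates 1 and 4 to 8, and the value was −0.25 under quantile normalization. Nup205 and Nup188 each had a probe set near the nonamplified level and another far below it. At 1454743_at Nup205 read 955 to 1162 (median 986) and 501 to 1739 (median 1066) (log2 fold change −0.015, SE 0.23, limma adjusted p = 0.9597), while at 1430343_at it fell from 279 to 324 (median 298) to 1 to 128 (median 19.7) (log2 fold change −2.99, SE 0.30, limma adjusted p = 1.99e-07). At 1427047_at Nup188 read 462 to 538 (median 496) and 176 to 666 (median 402) (log2 fold change −0.46, SE 0.22, limma adjusted p = 0.0889), which passed without amplified replicate 8 (−0.58, limma adjusted p = 0.0204). At 1442314_at it fell from 151 to 187 (median 168) to 1 to 33.5 (median 17.1) (log2 fold change −2.60, SE 0.18, limma adjusted p = 2.00e-09). Nup155 was the most uneven member. At 1449200_at its nonamplified arrays read 836 to 905 (median 861), whereas amplified replicates 1 and 3 read 16.7 and 72.8 and the other 6 between 1582 and 3724 (log2 fold change 0.24, SE 0.90, limma adjusted p = 0.841). No amplified array lay inside the nonamplified range, the low and high arrays lying on opposite sides of it. Its second tested probe set had −0.24 (limma adjusted p = 0.558).

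The nuclear basket was represented by Nup153 and Nup50, which bind importins on the nuclear side. Of 5 tested probe sets 2 fell and none rose, beside 32.8% and 24.7% of all tested probe sets. The counts were the same under quantile normalization, where 29.7% of all tested probe sets fell and 30.5% rose. Nup153 at 1452176_at read 988 to 1117 (median 1066) and 123 to 1079 (median 312) (log2 fold change −1.53, SE 0.34, limma adjusted p = 0.000952), with amplified replicate 7 inside the nonamplified range. At 1441733_s_at it read 218 to 269 (median 248) and 1 to 604 (median 121) and did not pass (log2 fold change −1.47, SE 0.65, limma adjusted p = 0.0645), though it did without amplified replicate 2 (−1.86, limma adjusted p = 0.0119) or replicate 3 (−1.75, limma adjusted p = 0.0283). Nup50 at 1450722_at read 512 to 615 (median 580.1) and 45.6 to 1148 (median 508) (log2 fold change −0.33, SE 0.44, limma adjusted p = 0.553), and its probe set 1422719_s_at fell from 168 to 194 (median 178) to 11.6 to 59.2 (median 21.2) (log2 fold change −2.21, SE 0.19, limma adjusted p = 2.92e-08). The third probe set (1428328_at) had −0.48 and did not pass. Nup210, the membrane-spanning nucleoporin, read 215 to 256 (median 237) and 11.9 to 724 (median 335) at 1417585_at (log2 fold change −0.021, SE 0.52, limma adjusted p = 0.976) and had −0.12 at 1443310_at. Nup210l, its paralog, fell from 341 to 404 (median 383) to 143 to 270.4 (median 180.4) without overlap (log2 fold change −0.96, SE 0.11, limma adjusted p = 6.09e-07).

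Probe sets of the same gene often went apart, as they do across the table. Of 31 member genes with at least 2 tested probe sets, 6 (19.4%) had called probe sets in both directions, namely Kpna1, Kpnb1, Ipo5, Ipo9, Nup62 and Nup85. Among all 5605 such genes the share was 19.9%. The median range of log2 fold changes within a gene was 1.37 for members and 1.35 for all such genes. By gene, 10 had called probe sets only higher, 19 only lower and 11 had no call. When each gene was represented by its brightest probe set on nonamplified arrays, 12 genes were higher and 10 lower, whereas with the mean over the tested probe sets of a gene 10 were higher and 21 lower. Counts of these kinds over all genes are not given here. They therefore do not show whether the members differ from genes at large. By type of probe set the counts were as follows, without a test between types. Of 11 tested _x_at sets 8 rose, 5 of them from Ran, and 2 fell, beside 40.6% higher and 19.4% lower among all 1767 tested _x_at sets. Of 69 plain sets 9 rose and 30 fell, beside 23.4% and 33.5% of all 20152 plain sets tested. The positions of the probes on the transcripts were not used here, so the part of probe position was not tested.

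Some probe sets of a gene rose and fell together from array to array. The 2 Xpot probe sets that rose were highest on amplified replicate 1, with 4155 and 5161, and lowest on replicate 4, with 489 and 573. The third Xpot probe set was highest on replicate 4, with 2247. Nup62 was highest on amplified replicate 5 and lowest on replicate 7 at 1415925_a_at, 1438917_x_at and 1447905_x_at. Nup54 was highest on replicate 6 at 4 of its 5 tested probe sets. On amplified replicate 3 both Nupl1 probe sets with large spread were lowest, at 6.86 and 1, and so were the Kpna1 probe sets 1419548_at and 1460260_s_at, both at 1. Over 98 pairs of tested probe sets of the same gene, 25 (25.5%) shared their lowest amplified array and 28 (28.6%) their highest. Pairs from different member genes did so in 12.3% and 12.1%. These are descriptions without a test, since pairs of a gene can share probes and probe sets of an array share its reaction.

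**Figure D3:**
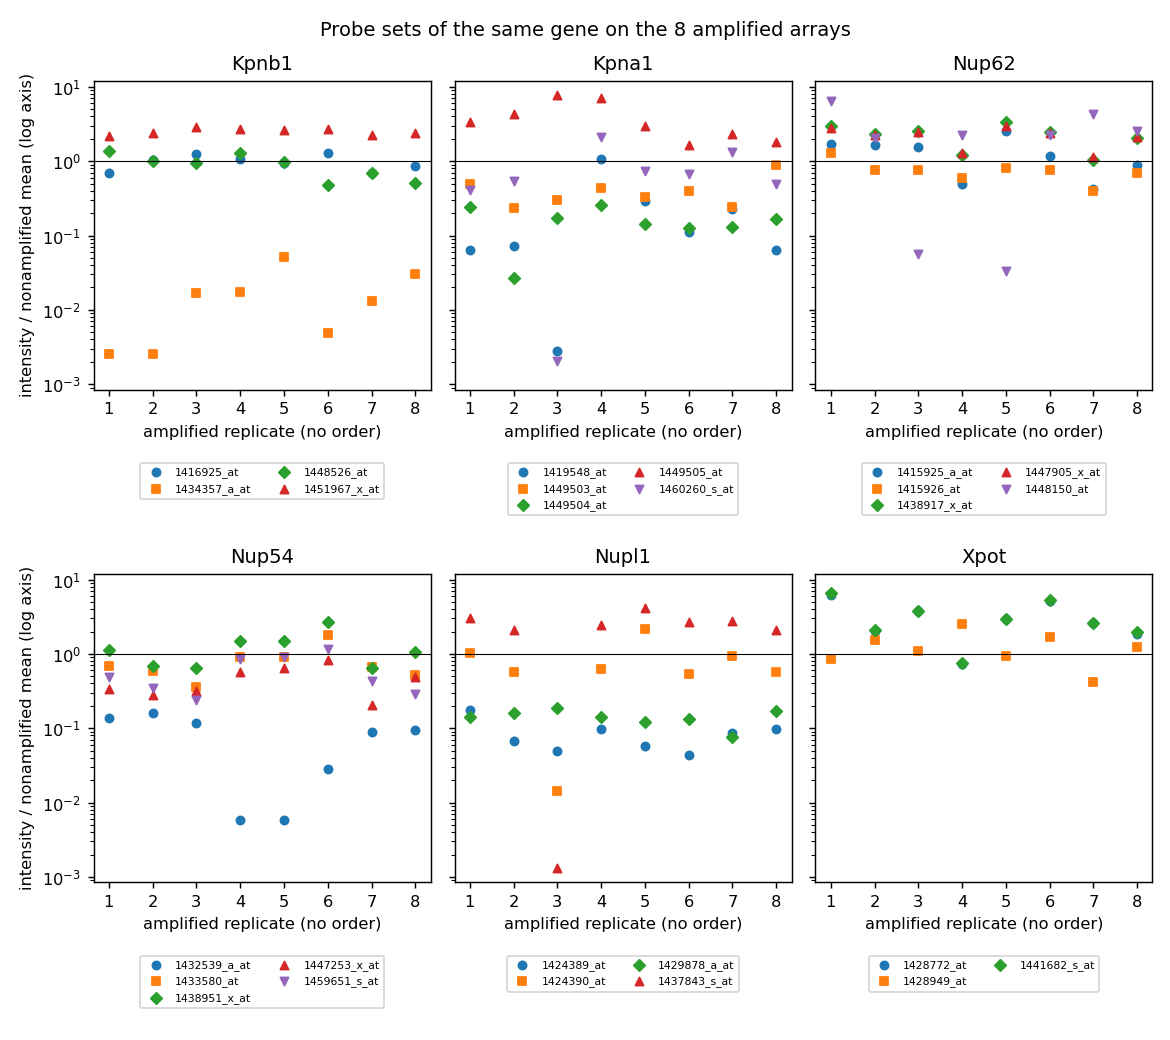
Intensity divided by the nonamplified mean of the same probe set (log axis) on each of the 8 amplified arrays, 1 panel per gene and 1 symbol per tested probe set. Kpnb1 and Kpna1 have probe sets on both sides of the line at 1 throughout, 3 Nup62 probe sets follow each other, and the Xpot points of 1428772_at and 1441682_s_at nearly coincide.

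Amplified arrays spread far more than nonamplified arrays for nearly every member. The SD of log2(intensity + 16) over the 8 arrays had a median of 0.64 for the amplified and 0.07 for the nonamplified group, beside 0.51 and 0.13 for all tested probe sets. It was larger in the amplified group for 101 of 102 tested members, the exception being the Ran probe set 1436490_x_at (0.071 against 0.076). The 5 Ran probe sets of type _x_at had amplified SDs of 0.06 to 0.13, and Ipo5 at 1426946_at, Kpna2 and Kpnb1 at 1451967_x_at had 0.12, 0.12 and 0.15. The largest were 2.69 for Nup155 at 1449200_at, 2.47 for Nupl1 at 1437843_s_at, 2.02 for Nup62 at 1448150_at, 1.98 for Kpna6 at 1426796_at and 1.95 for Nup153 at 1441733_s_at. All of these had nonamplified SDs of 0.039 to 0.12.

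**Figure D4:**
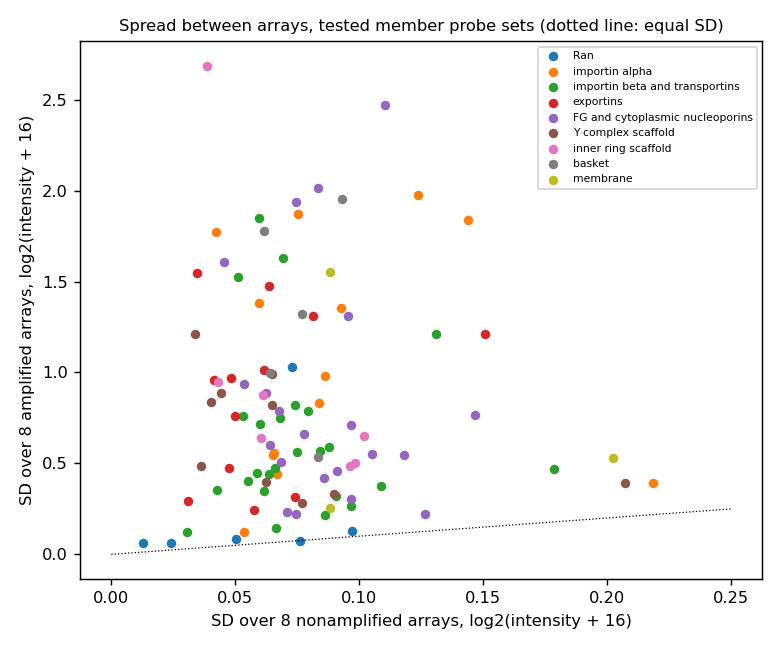
SD of log2(intensity + 16) over the 8 nonamplified arrays (x axis) and the 8 amplified arrays (y axis) for the 102 tested member probe sets, coloured by role, with a dotted line of equal SD. All but 1 point lie above the line, and Nup155 (1449200_at) stands highest at 2.69.

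Loss of a signal on some arrays was seen for 35 members. Probe sets whose nonamplified mean was in the upper 50% were taken as present, among them 106 members, and such a probe set dropped out on an array where it read less than the 25th percentile there. Of these 33% dropped out on at least 1 amplified array and 11.3% on at least 4, beside 37.8% and 13.9% of all 22518 such probe sets. Each nonamplified array was set against the mean of the other 7, and no member dropped out there. Per amplified array 8 to 18 members dropped out, a share of 7.55% to 17% of members and 13.2% to 15.5% of all such probe sets. The Nup153 probe set 1441689_at dropped out on all 8 amplified arrays, reading 1 to 7.55 (median 1) against 83.8 to 107 (median 100.4). Kpnb1 at 1434357_a_at and Ipo7 at 1442511_at dropped out on 7, and Xpo4 at 1430797_at and Nupl2 at 1456773_at on 6. Kpnb1 at 1451967_x_at and Ipo7 at 1454955_at had no dropout. The reference of this measure is the nonamplified group, so it counts departures from that group only.

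**Figure D5:**
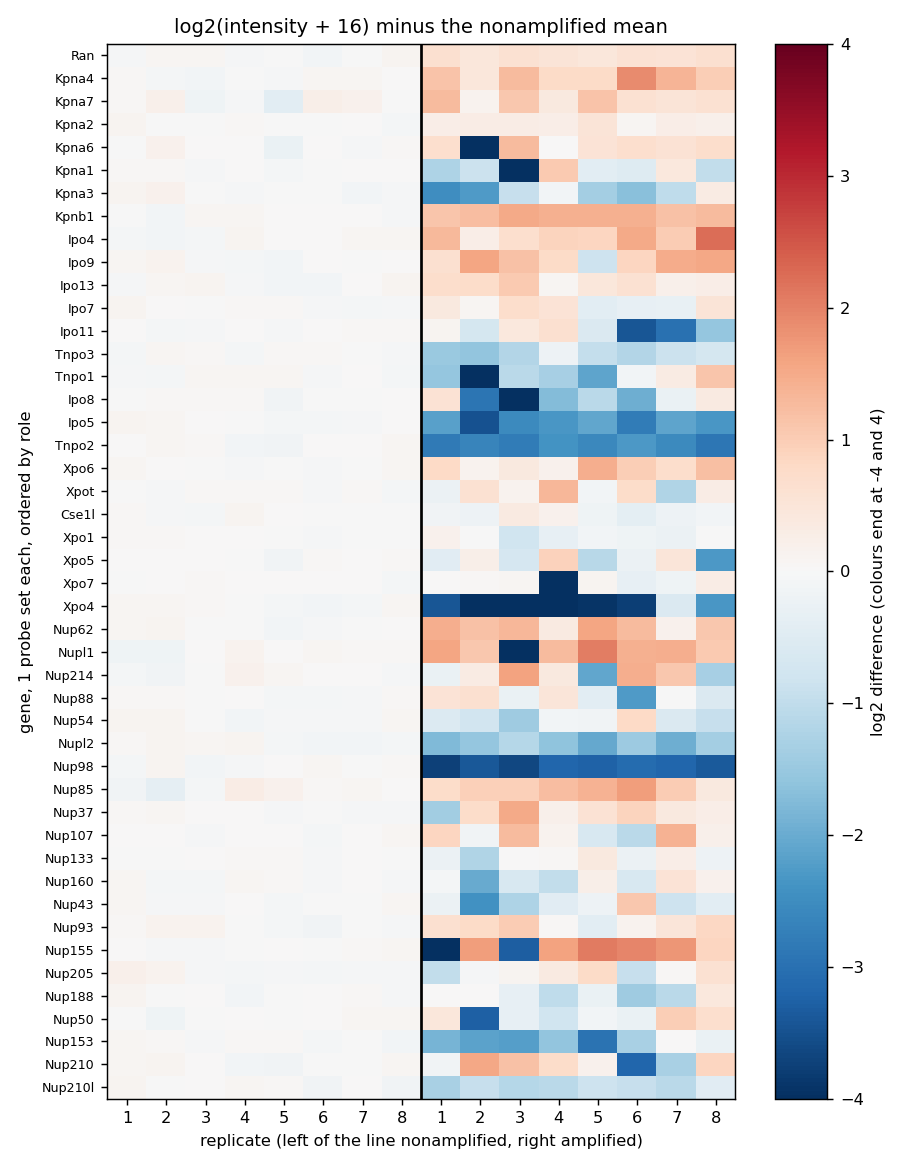
Difference of log2(intensity + 16) from the nonamplified mean on each of the 16 arrays (columns, nonamplified left and amplified right of the line) for the tested probe set of each gene with the highest nonamplified mean (rows, 46 genes by role); red is higher and blue lower, and colours end at −4 and 4. Nonamplified columns are pale, Tnpo2 and Nup98 are blue in all 8 amplified columns, and Nup155, Kpna6 and Nupl1 have dark blue cells on 1 or 2 arrays beside red ones.

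The other 22 members were too dim on average to be tested. They belonged to 13 genes, each of which had a brighter probe set, and 6 of them were probe sets of Xpo7. Among the dim ones Xpo7 at 1435814_at read 25.7 to 44.4 (median 38.7) without amplification and 1 to 9.17 (median 1.69) after it, and Ipo5 at 1431706_at read 44.97 to 76.2 (median 63.1) and 6.23 to 24.3 (median 16.8). Both were lower on every amplified array. Xpo7 at 1443089_at went the other way, from 1 to 27.9 (median 15.9) to 18.2 to 88.5 (median 46.99). The filter uses the mean of both groups. Of the tested members 15 passed it through the nonamplified arrays alone and 1, Kpna7 at 1437754_at, through the amplified arrays alone. The counts over tested members therefore favour such differences. Without a filter 25 of the 124 members were called higher and 52 lower, beside 19.0% and 31.1% of all 45037 probe sets and 50.1% in either direction.

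Other genes of the pathway, from a list of 30 names of further pore subunits, Ran regulators and RNA export factors, were counted in the same fit. Of 60 tested probe sets of 26 genes 11 rose, 27 fell and 22 did not pass, with a median log2 fold change of −0.53. The regulators of Ran went apart. Ranbp1, which helps to release Ran-GTP from receptors, rose from 3862 ± 159 to 10173 ± 441 (SD over the 8 arrays of a group, log2 fold change 1.39, SE 0.063, limma adjusted p = 8.61e-12). Rcc1, the exchange factor that loads Ran with GTP in the nucleus, fell from 465 ± 27.7 to 97.7 ± 77.8 (SD over the 8 arrays of a group, log2 fold change −2.38, SE 0.34, limma adjusted p = 1.36e-05). Rangap1, which triggers GTP hydrolysis outside the nucleus, fell at 1451092_a_at (log2 fold change −1.23) and 1423749_s_at (−0.44) and did not pass at 1444581_at (−0.11). Values under other scalings are not given for this list, so small changes such as that of −0.44 may depend on the scaling. The largest increases were those of Nxt1, a cofactor of mRNA export, from 368 ± 7.56 to 2603 ± 1461 (SD over the 8 arrays of a group, log2 fold change 2.14, SE 0.71, limma adjusted p = 0.0169), and Ddx19b, an RNA helicase of the cytoplasmic face (1.42). Nxt1 read 31.7 to 4709 (median 2417) on amplified arrays, and the lowest lay under the nonamplified range of 358 to 382. The largest decreases were those of Seh1l, a Y complex subunit, from 457 ± 33.99 to 12.6 ± 8.51 (SD over the 8 arrays of a group, log2 fold change −4.10, SE 0.15, limma adjusted p = 7.97e-13), and Ranbp2, the large protein of the cytoplasmic filaments (−3.56). Seh1l and Ranbp2 also had probe sets that did not pass, with −0.0024 at 1424202_at and 0.57 at 1422621_at. Ranbp2 rose at the dim probe set 1445883_at (0.68), and Ddx19b did not pass at 1424590_at (−0.85). These counts stand beside 24.7% higher and 32.8% lower calls over all tested probe sets.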

How the data were processed

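Labelled cRNA for each array was made by the one-cycle procedure of Affymetrix, per the labels' protocols, either from cDNA that had been PCR-amplified from 10 pg of RNA or from 5 µg of the same RNA. The values deposited by the authors are linear intensities of probe sets, never under 1. How they were summarised from probes and scaled between arrays was not given in the sources used here, and sequencing depth does not apply to arrays. Genes were named through the platform annotation, and their symbols were checked by gene identifier against RefSeq (assembly GRCm38.p6). The 64 control probe sets were set aside. Intensities were taken as log2(intensity + 16). Probe sets whose mean over the 16 arrays did not exceed the 40th percentile, equal to 33.7 in intensity, were not tested. The groups, given by the sample titles, were compared by limma version 3.58.1 (functions lmFit and eBayes, no covariates, 2-sided) under R version 4.3.3, and p-values were adjusted by Benjamini-Hochberg over 27022 probe sets. The script was tested on simulated data. Python 3.11.15 and matplotlib 3.10.9 made the tables and figures.

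The members, role classes and lists were chosen with earlier results of these data known. Every member gene may be named. Values per array are given by rule for the largest positive, largest negative and smallest difference in each role (the brightest probe set of each gene without amplification), for Ran, Kpnb1, Kpna2, Cse1l, Xpo1 and Nup62, for the 5 members with the most dropouts and the 5 with the largest amplified SD, and for genes with called changes of at least 2-fold in both directions. Others named were chosen after their values were seen. Replicate numbers were not taken as pairs. Scan dates were not used and batches not tested. Alternatives are given in the closing section.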

Additional observations from a re-analysis of the deposited data

Results flagged for a closer look

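Among the probe sets whose array values the rule selects, the highest or lowest array of a group stood apart from the others in the cases below, judged on log2(intensity + 16) by the gap to the nearest array over the range of the group. Both groups of 41 probe sets were examined, which is 82 groups, and chance flags about 1 in 20 of them. Nup153 at 1441689_at was highest on amplified replicate 1, at 7.55, with the next at 2.12. Nupl2 at 1456773_at was highest on amplified replicate 1, at 93.6, with the next at 17.7. Kpna1 at 1449504_at was lowest on amplified replicate 2, at 6.25, with the next at 29.5. Kpna6 at 1426796_at was lowest on amplified replicate 2, at 1, with the next at 493. Nup133 at 1423787_at was lowest on amplified replicate 2, at 292, with the next at 576. Nup50 at 1450722_at was lowest on amplified replicate 2, at 45.6, with the next at 326. Kpna1 at 1460260_s_at was lowest on amplified replicate 3, at 1, with the next at 198. Nupl1 at 1437843_s_at was lowest on amplified replicate 3, at 1, with the next at 1591. Kpna1 at 1449505_at was lowest on nonamplified replicate 1, at 335, with the next at 374. Nup50 at 1450722_at was lowest on nonamplified replicate 2, at 512, with the next at 571. The values of 1 are the floor of the table. The cause of these single-array values was not tested.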

How the results depend on the processing

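The counts of 22 members called higher and 39 called lower stayed within 1.5 times under pseudocounts of 1 and 64, centring on the median, scaling on the brighter 50%, a 60th percentile filter, no filter, weights per group, a robust trend, the replicate number as a block and leaving out each array. Quantile normalization gave 9 higher and 59 lower, 2 at least 2-fold higher and a median of −0.76. Centring on the median gave 16 at least 2-fold higher in place of 9, and a median of −0.00039. Of all 27022 tested probe sets 3373 were at least 2-fold higher as deposited, 3691 under quantile normalization and 5512 after centring. Their medians were −0.17, −0.03 and 0.24. Leaving out _x_at and _s_at sets, which tests fewer, gave 12 members higher and 5 at least 2-fold higher. The counts over all 23666 probe sets then tested were 5567 and 2798. Against a minimum difference of 0.5, 9 members were higher. By the mean over a gene's probe sets 21 genes were lower in place of 10, and with a 10th percentile dropout limit 21 members dropped out in place of 35. The minimum difference of 0.5 and the 10th percentile limit are stricter by construction, and leaving out _x_at and _s_at sets tests fewer. Centring adds the same amount to every log2 fold change. The cause of the other shifts was not tested. Deviations of arrays with equal numbers correlated with r of −0.0078 to 0.018, so the numbers do not pair arrays. With the replicate block 21 were higher and 37 lower, and Ipo8 1426760_at (limma adjusted p = 0.0589), Nup62 1415926_at (0.05305) and Xpo1 1418442_at (0.0543) did not pass. Leaving out 1 array gave 21 to 22 higher, 37 to 41 lower, 7 to 10 at least 2-fold higher, 33 to 37 at least 2-fold lower and a median of −0.48 to −0.33; 13 tested members changed their call on leaving out some array. Among 38 tested probe sets selected by rule, signs turned under centring on the median (0.32 for Cse1l 1448809_at, 0.36 for Kpna6 1426796_at, 0.35 for Kpnb1 1416925_at, 0.18 for Kpnb1 1448526_at, 0.27 for Nup133 1423787_at, 0.39 for Nup205 1454743_at, 0.39 for Nup210 1417585_at, 0.078 for Nup50 1450722_at, 0.22 for Xpo1 1418443_at), the brighter 50% (0.13 for Cse1l 1448809_at, 0.16 for Kpna6 1426796_at, 0.16 for Kpnb1 1416925_at, 0.074 for Nup133 1423787_at, 0.20 for Nup205 1454743_at, 0.19 for Nup210 1417585_at, 0.029 for Xpo1 1418443_at), quantile normalization (−0.64 for Ipo7 1454955_at, −0.61 for Kpna2 1415860_at, −0.36 for Nup155 1449200_at, −0.34 for Nup214 1434351_at, −0.25 for Nup93 1424291_at, −0.096 for Nupl1 1437843_s_at, −0.012 for Ran 1436490_x_at) and a pseudocount of 64 (0.13 for Kpna6 1426796_at, 0.10 for Nup210 1417585_at). On leaving out 1 array signs turned for Kpna6 1426796_at (−0.24 to 0.64), Kpnb1 1416925_at (−0.12 to 0.011), Nup133 1423787_at (−0.22 to 0.0083), Nup155 1449200_at (−0.027 to 0.95), Nup205 1454743_at (−0.13 to 0.12), Nup210 1417585_at (−0.25 to 0.43), Nup214 1434351_at (−0.059 to 0.47) and Nup50 1450722_at (−0.52 to 0.089). Of the turned values those of Kpna2 at 1415860_at, Nup93 at 1424291_at and Ran at 1436490_x_at were called in the values as deposited.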
